A study of Homo sapiens with 9 samples.

Results

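Aminoacyl-tRNA synthetases are the enzymes that join each amino acid to its own tRNA, the step that supplies the ribosome with charged tRNAs. The human genome holds largely separate sets for the cytosol and for mitochondria, and both sets are encoded by nuclear genes. The 36 synthetase genes described here were chosen by symbol, 20 cytosolic genes and 16 mitochondrial genes whose symbols end in 2, among 58721 genes in the count tables. The choice went by symbol and not by measured values, but it was made with earlier results of these data known. KARS and GARS each encode both the cytosolic and the mitochondrial enzyme, and they are counted here as cytosolic.

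The cells were H1299, a human lung carcinoma line of the non-small cell type that is long established in culture. Control cells were kept in serum free medium. Cells of the siCLOCK group received small interfering RNA against CLOCK, a circadian transcription factor, and cells of the melatonin group received 0.1 mM melatonin, the hormone of the pineal gland. Each group had 3 libraries, which the labels call independent without saying whether they were separate cultures, so a p-value here reflects no more than how these libraries spread, which may be technical. The labels name no genetic change in the cells, no non-targeting siRNA and no treatment time.

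The libraries held 15384539 to 19192962 counts assigned to genes. They fell into 2 sets by the share of unmapped reads, which was 1.22% to 1.36% in the 3 controls and siCLOCK replicates 1 and 2, and 2.24% to 2.34% in the 3 melatonin libraries and the library labelled siCLOCK replicate 3. All controls lay in the lower set and all melatonin libraries in the higher, so only the library labelled siCLOCK replicate 3 bears on telling set from melatonin, and without it they cannot be told apart. Levels are given as CPM, which are counts scaled to the library total after that total was adjusted by TMM scaling. CLOCK stood at 39.0, 38.6 and 44.4 CPM in the controls and at 20.9, 32.0 and 38.1 CPM in the siCLOCK libraries. In the melatonin libraries it stood at 40.9, 41.6 and 39.0 CPM. The library labelled siCLOCK replicate 3 was thus close to the lowest control, and the reduction that its label implies was not seen there. Processed pseudogenes took 0.314% of its gene counts, against 0.317% to 0.324% in melatonin and 0.163% to 0.172% in the other 5 libraries. Whether its label is right cannot be told from the files, and it enters the siCLOCK means and carries the set term used further on. For CLOCK the exact permutation test of siCLOCK against control gave p = 0.1, the smallest that 3 against 3 libraries allow. By the test used for all other genes CLOCK did not pass (log2 fold change -0.42, SE 0.14, adjusted p = 0.340 by edgeR's quasi-likelihood test). The siCLOCK mean was 74.7% of the control mean. The epithelial keratins KRT8 and KRT18 and the intermediate filament gene VIM were present in every library. All 3 of these line markers were lower in melatonin against control (log2 fold changes of -0.31 to -0.30), and their part in the results was not tested. The summed leukocyte markers reached at most 0.378 CPM and the erythroid markers 0.0561 CPM, while the endothelial markers summed to 2.02 to 4.35 CPM and the fibroblast markers to 2.08 to 3.45 CPM.

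The synthetases fall into groups by where they work and how they are held. DARS, EPRS, IARS, KARS, LARS, MARS, QARS and RARS belong to the multisynthetase complex, a large cytosolic assembly, with EPRS carrying the enzymes for glutamate and proline in 1 chain. The other 12 cytosolic genes encode enzymes outside that complex, called free here in that sense only, with FARSA and FARSB as the chains of phenylalanyl-tRNA synthetase. Several cytosolic synthetase genes are known targets of ATF4, the transcription factor that is translated when amino acids run short or when proteins misfold, and which binds an element made of a C/EBP site joined to an ATF site. Here 12 cytosolic genes were listed from general knowledge as ATF4-linked, namely AARS, CARS, EPRS, GARS, IARS, LARS, MARS, NARS, SARS, TARS, WARS and YARS, and the other 8 cytosolic genes as not.

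Promoter letters were examined after 14 cytosolic genes and no mitochondrial gene of the 36 were found lower in melatonin against control, where 12.1% of all genes tested were called lower. RefSeq windows of 250 bases before to 50 bases after a gene's start, on GRCh38.p14, were matched for 30 of the 36 genes, 16 cytosolic and 14 mitochondrial. DARS, LARS, VARS, YARS, AARS2 and VARS2 had no window. The windows were searched on both strands for TGATGNAA, a common form of the C/EBP-ATF element, for its subset TGATGCAA, and for CACGTG, the E-box that CLOCK and its partner bind. TGATGNAA was found in 7 of 16 cytosolic genes (43.8%), in 1 of 14 mitochondrial genes (7.14%) and in 4.46% of 27305 genes with a window. TGATGCAA was found in 6 of 16 cytosolic genes, in none of 14 mitochondrial genes and in 1.08% of genes. CACGTG was found in 1 cytosolic gene, IARS, in 3 mitochondrial genes, CARS2, EARS2 and MARS2, and in 8.77% of genes. A match is a run of letters and not a binding site. The 30 bases around each match are given for the 8 genes that hold TGATGNAA, 5′ to 3′ on the gene's own strand, with the match in capitals; TTGCATCA is TGATGCAA read on the other strand.

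AARS, chr16:70289675-70289704, minus strand: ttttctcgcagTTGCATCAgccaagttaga
CARS, chr11:3057407-3057436, minus strand: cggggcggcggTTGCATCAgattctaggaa
GARS, chr7:30594834-30594863, plus strand: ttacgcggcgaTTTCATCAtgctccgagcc
IARS, chr9:92293692-92293721, minus strand: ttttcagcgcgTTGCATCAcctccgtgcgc
MARS, chr12:57488053-57488082, plus strand: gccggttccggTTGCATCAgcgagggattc
NARS, chr18:57621804-57621833, minus strand: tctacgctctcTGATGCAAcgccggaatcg
TARS, chr5:33440956-33440985, plus strand: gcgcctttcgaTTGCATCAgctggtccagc
YARS2, chr12:32756076-32756105, minus strand: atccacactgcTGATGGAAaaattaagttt

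In CARS, IARS, MARS, NARS and TARS the match began within 15 bases of the annotated start, at positions -2, -13, -4, 15 and 3. It began at -33 in GARS, at -187 in AARS and at -197 in YARS2. The 5 matches nearest the start all hold TGATGCAA on the strand shown or on the other. For a view of a whole upstream stretch, the 250 bases before the start of AARS and of QARS are given. AARS holds a match and was lower in melatonin, while QARS, which encodes glutaminyl-tRNA synthetase, holds none and did not pass the test.

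AARS, chr16:70289507-70289756, minus strand: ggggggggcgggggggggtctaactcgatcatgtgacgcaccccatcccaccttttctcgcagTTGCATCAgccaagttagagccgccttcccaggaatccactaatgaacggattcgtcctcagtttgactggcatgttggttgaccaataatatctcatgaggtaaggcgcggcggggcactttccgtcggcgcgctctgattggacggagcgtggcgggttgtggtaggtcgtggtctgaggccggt
QARS, chr3:49104758-49105007, minus strand: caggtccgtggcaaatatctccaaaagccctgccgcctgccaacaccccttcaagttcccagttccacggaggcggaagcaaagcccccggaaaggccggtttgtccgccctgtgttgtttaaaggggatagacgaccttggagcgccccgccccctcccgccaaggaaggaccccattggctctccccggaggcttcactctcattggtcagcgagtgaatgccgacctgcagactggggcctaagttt

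Levels of different genes were compared as TPM, which divide counts by the summed exon length of each gene before scaling to the library. The cytosolic genes had a median of 145 TPM in control and the mitochondrial genes of 18.7 TPM. KARS, lysyl-tRNA synthetase, was the highest of the 36 at 269 TPM ± 7.55 (SD, n = 3), followed by RARS, for arginine, at 230 TPM ± 14.9, and GARS, for glycine, at 225 TPM ± 21.7. The ranges of RARS, GARS, NARS and AARS overlapped from each gene to the next in that order, while KARS lay above RARS in every control library. IARS2, the mitochondrial isoleucyl enzyme, was the highest mitochondrial gene at 147 TPM ± 6.92, inside the range of the cytosolic genes and overlapping with SARS and EPRS. RARS2 at 112 TPM ± 0.890, YARS2 at 69.4 TPM ± 8.71 and TARS2 at 45.7 TPM ± 3.14 also lay among cytosolic genes. At the low end, CARS, for cysteine, was the lowest cytosolic gene at 12.0 TPM ± 1.17, and HARS, for histidine, the next at 40.3 TPM ± 1.66. Both have long summed exons in the annotation (10037 and 7853 bases), which lowers their TPM if the cells use shorter forms. SARS2, the mitochondrial seryl enzyme, stood at 0.664 TPM ± 0.0572, with 5 to 17 counts in a library. It shares 46.2% of its exon bases with a second annotated gene on the same strand, AC011455.2, and counts that fit both genes were set aside as ambiguous. Of the 35 neighbouring pairs in the order of levels, 21 had overlapping ranges.

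**Figure D1:**
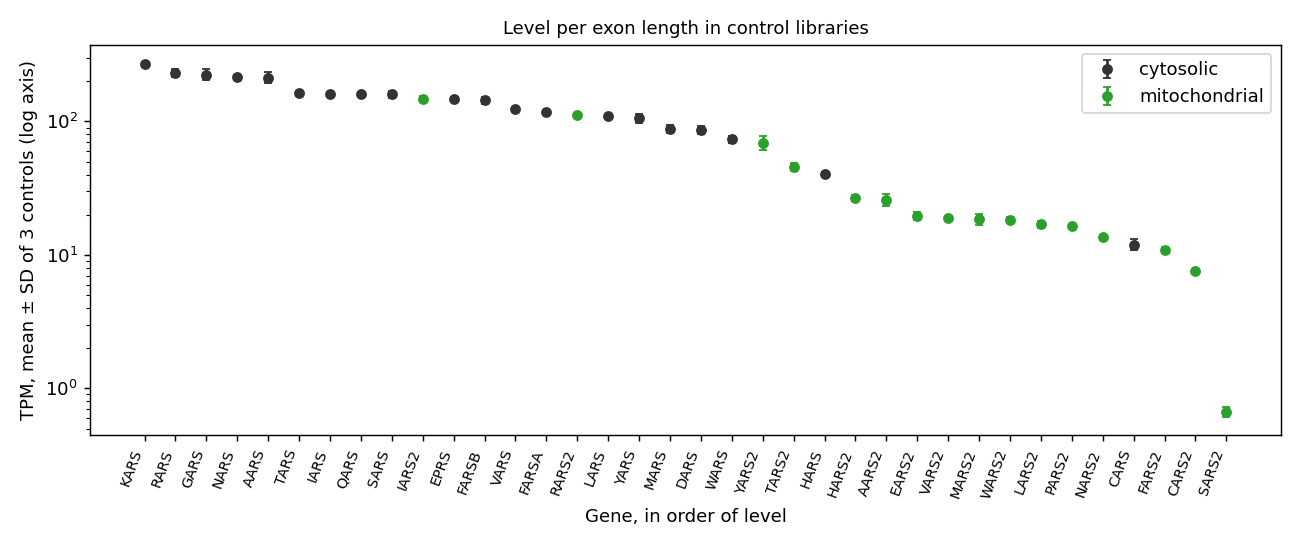
Level per exon length of the 36 synthetase genes in the 3 control libraries (vertical log axis, TPM, mean ± SD, n = 3; genes on the horizontal axis in order of level; dark points cytosolic, green points mitochondrial). Most cytosolic genes lie above most mitochondrial genes, with IARS2, RARS2, YARS2 and TARS2 among the cytosolic genes and CARS low among the mitochondrial ones.

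Melatonin against control set the hormone against serum free medium. Of the 20 cytosolic genes 14 fell and none rose, and of the 16 listed mitochondrial genes none fell and none rose, by edgeR's quasi-likelihood test with Benjamini-Hochberg adjustment over the 16441 genes that entered the fit. All 36 genes passed the filter on low counts. In the same comparison 12.1% of all genes tested were called lower and 11.0% higher. Among genes in the CPM range of the cytosolic members 17.7% were called lower, and among genes in the range of the mitochondrial members without SARS2 15.2% were. The median log2 fold change was -0.26 over the cytosolic genes, -0.047 over the mitochondrial genes and 0.011 over all genes tested. The standard errors were of like size, with a median of 0.067 for the cytosolic and 0.084 for the mitochondrial genes. In bulk RNA a lower level in every cell and fewer cells holding the RNA cannot be told apart.

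The fall was moderate in size, with log2 fold changes from -0.58 to -0.16 among the 14 genes. CARS (ENSG00000110619.17, chromosome 11, 3000922 to 3057613) fell furthest. It stood at 42.7, 36.9 and 35.0 CPM in the controls, at 31.4, 31.2 and 30.5 CPM in the siCLOCK libraries and at 26.3, 25.2 and 25.5 CPM in the melatonin libraries. The 3 groups did not overlap, and melatonin was 67.1% of the control mean (log2 fold change -0.58, SE 0.083, adjusted p = 6.87e-05 by edgeR's quasi-likelihood test). YARS, for tyrosine, fell by 0.46 on the log2 scale, and GARS and AARS, for glycine and alanine, each by 0.42. MARS, the methionyl enzyme that also charges the initiator tRNA and whose gene shares 355 exonic bases with DDIT3 on the other strand, fell by 0.41 and LARS, the leucyl enzyme that also acts as a leucine sensor, by 0.39. VARS fell by 0.33, KARS by 0.31, NARS by 0.30, TARS by 0.29, IARS by 0.21, SARS by 0.20, DARS by 0.19 and EPRS by 0.16. The calls of DARS and EPRS lay just inside the threshold (adjusted p = 0.0461 and 0.0495 by edgeR's quasi-likelihood test).

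The 6 cytosolic genes that did not pass were FARSA (-0.22, adjusted p = 0.0575 by edgeR's quasi-likelihood test), FARSB (-0.15), WARS (-0.057), HARS (-0.014), QARS (0.033) and RARS (0.13). RARS (ENSG00000113643.8, chromosome 5, 168486445 to 168519299) went against the rest of its class. It stood at 253, 234 and 265 CPM in the controls, at 286, 244 and 259 CPM in siCLOCK and at 291, 268 and 267 CPM in melatonin. All 3 melatonin libraries lay above all controls, yet the difference did not pass (log2 fold change 0.13, SE 0.070, adjusted p = 0.181 by edgeR's quasi-likelihood test). QARS, like RARS a gene of the multisynthetase complex, stood at 240, 238 and 245 CPM in the controls and at 243, 245 and 252 CPM in melatonin, and those ranges overlapped. In 16 of 20 cytosolic genes all melatonin libraries lay below all controls and in 1 gene, RARS, above, where 21.4% and 21.9% of all genes tested did so.

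Genes of the complex and genes of free enzymes were both among those that fell. For scale, 12.1% of all genes tested were called lower in melatonin against control, and 17.7% of those in the CPM range of the cytosolic members. In the multisynthetase complex 6 of 8 genes fell, with QARS and RARS as the others, and the median log2 fold change was -0.20. Of the 12 free cytosolic genes 8 fell, with a median of -0.30. By the ATF4 list, 11 of 12 linked genes fell, all but WARS (median -0.35), and 3 of the 8 other cytosolic genes fell, DARS, KARS and VARS (median -0.17). That list was drawn up with earlier results of these data known, so it is not independent evidence.

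Of the cytosolic genes with a promoter window, all 7 that hold TGATGNAA fell in melatonin (log2 fold changes of -0.58 to -0.21, median -0.41), and 3 of the 9 without it fell, EPRS, KARS and SARS (median -0.15). The cytosolic genes with no window, DARS, LARS, VARS and YARS, all fell too, and whether they hold the letters is not known here. Over all genes tested with a window, 17.9% of 308 genes with TGATGNAA and 13.2% of 11239 genes without it were called lower. For TGATGCAA those shares were 27.5% of 80 genes and 13.3% of 11467 genes, the synthetase genes included. In melatonin against siCLOCK 1 of the 7 cytosolic genes with TGATGNAA and 1 of the 9 without it were lower, as were LARS, VARS and YARS, which had no window. Over all genes tested with a window, 12.3% of 308 with TGATGNAA and 10.9% of 11239 without it were lower there. For TGATGCAA it was 8 of 80 with it and 1252 of 11467 without it (10.9%). YARS2, the mitochondrial gene with a match, had a log2 fold change of -0.046.

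The mitochondrial genes spread from -0.18 (FARS2) to 0.22 (SARS2), and to 0.14 (NARS2) when SARS2 is set aside for its low counts. VARS2 (ENSG00000137411.17, chromosome 6, 30908242 to 30926459), for valine, had the smallest p of those below 0. It shares 22.0% of its exon bases with GTF2H4 on the same strand, so part of its reads went uncounted. It stood at 50.4, 51.6 and 49.3 CPM in the controls, at 53.9, 48.0 and 42.1 CPM in siCLOCK and at 44.1, 46.1 and 45.6 CPM in melatonin. The melatonin libraries lay below every control, and the siCLOCK libraries spanned both (log2 fold change -0.16, SE 0.081, adjusted p = 0.182 by edgeR's quasi-likelihood test). VARS2 was the only mitochondrial gene of the 16 without overlap between melatonin and control, and it passed when the fit held only the 6 libraries compared (adjusted p = 0.0464 by edgeR's quasi-likelihood test). HARS2, for histidine, had the smallest p of those above 0, at 33.5, 31.6 and 30.1 CPM in the controls and at 34.4, 33.5 and 34.2 CPM in melatonin (log2 fold change 0.10). Melatonin replicate 2 was level with control replicate 1, so the ranges met.

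**Figure D2:**
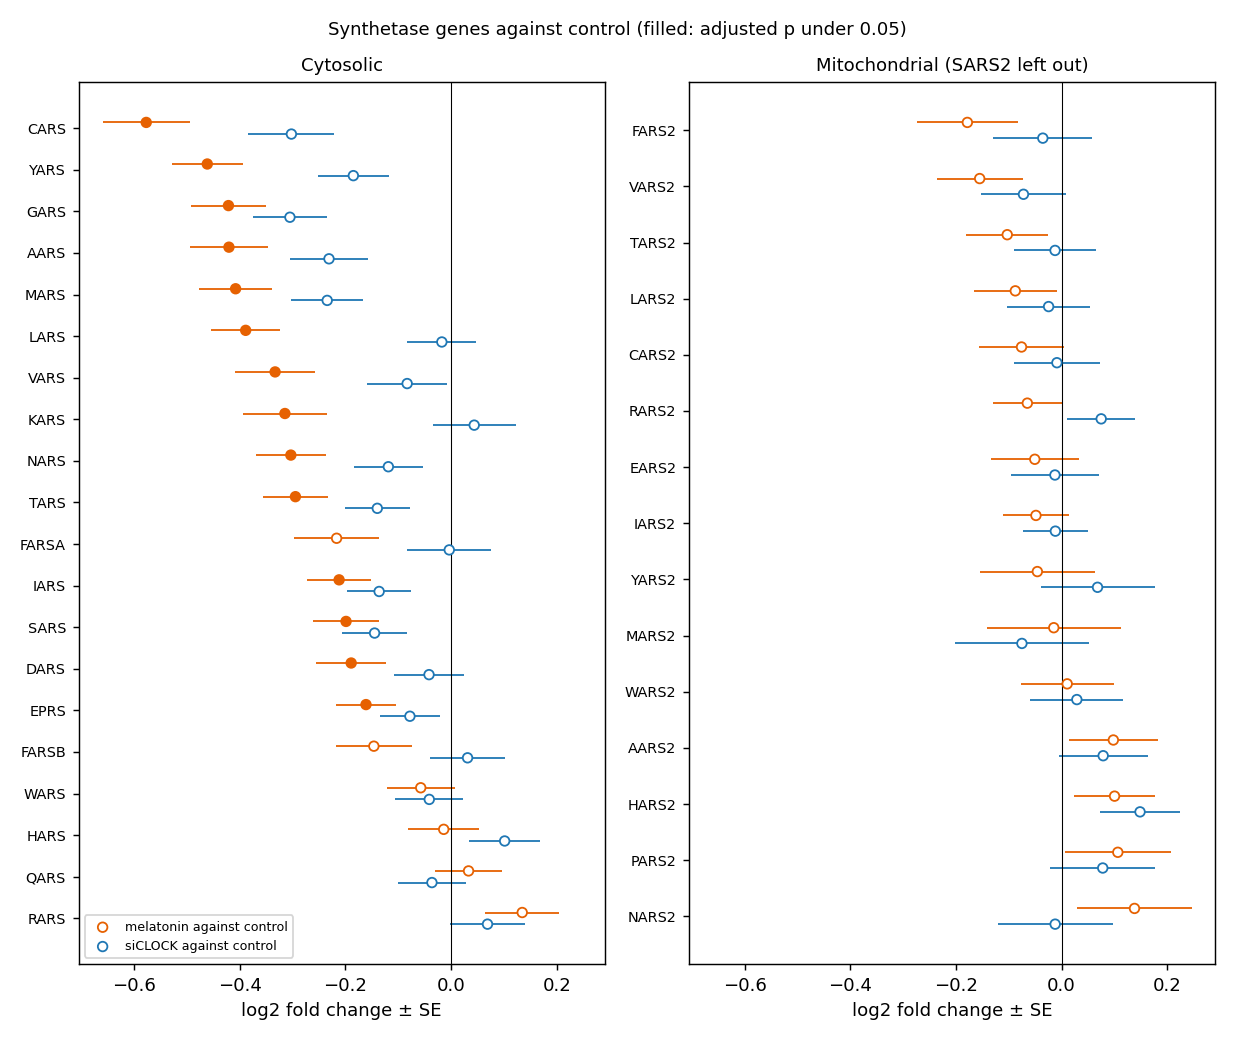
Log2 fold changes against control ± SE (horizontal axis) of the 20 cytosolic and 15 of the 16 mitochondrial synthetase genes (SARS2 left out for its low counts), for melatonin (orange) and siCLOCK (blue); filled points passed at an adjusted p under 0.05. The 14 filled points are all cytosolic and all melatonin, with RARS and QARS at the far end of the cytosolic panel.

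**Figure D3:**
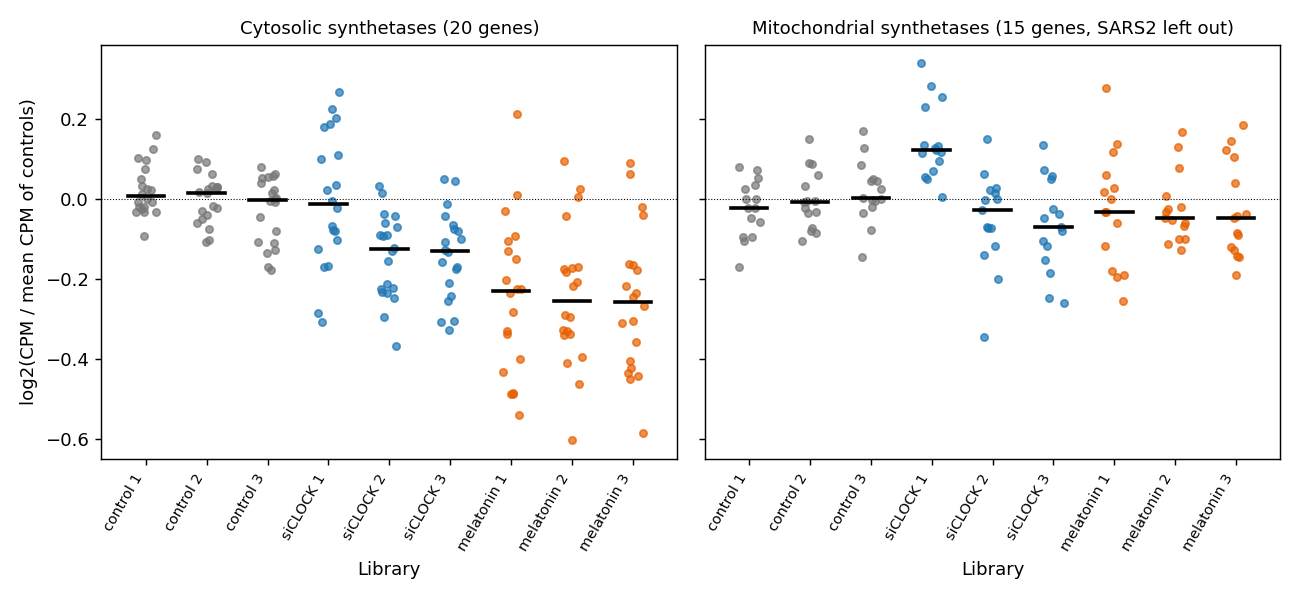
Each gene's CPM divided by its mean over the 3 controls (vertical axis, log2), by library, for cytosolic genes (left) and mitochondrial genes without SARS2 (right); the bar is the median over genes. The cytosolic medians of the 3 melatonin libraries lie between -0.26 and -0.23, below every other library.

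The summed level of each class gives the same picture by library. The cytosolic genes summed to 4550, 4497 and 4401 CPM in the controls, to 4482, 4037 and 4078 CPM in siCLOCK and to 3785, 3790 and 3766 CPM in melatonin. The melatonin libraries were the 3 lowest, and siCLOCK replicate 1 lay among the controls. The mitochondrial genes summed to 683, 687 and 704 CPM in the controls, to 754, 673 and 667 CPM in siCLOCK and to 675, 674 and 662 CPM in melatonin. There siCLOCK replicate 1 was the highest of the 9 libraries, and the 3 melatonin libraries lay below the lowest control by a small margin.

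Pairing each cytosolic gene with the mitochondrial gene for the same amino acid gave 12 pairs besides SARS and SARS2. The cytosolic log2 fold change in melatonin was below its partner's in 11 of the 12, with a median difference of -0.25 and a range from -0.52 (AARS and AARS2) to 0.20 (RARS and RARS2). The ratio of AARS to AARS2 in TPM was 8.92, 7.74 and 8.02 in the controls, 6.71, 6.74 and 6.41 in siCLOCK and 5.99, 5.82 and 5.43 in melatonin. The groups did not overlap in that ratio. The ratio of NARS to NARS2 was 15.9 ± 0.476 (SD, n = 3) in control, 14.8 ± 1.40 in siCLOCK and 11.7 ± 1.23 in melatonin. The ratio of RARS to RARS2 moved the other way, from 2.06 ± 0.126 in control to 2.37 ± 0.0269 in melatonin. These ratios are a description of chosen pairs and were not tested.

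Since melatonin and the set of higher unmapped reads coincide, the comparison was also fitted with the set as a term. The term is estimated from the library labelled siCLOCK replicate 3 against siCLOCK replicates 1 and 2 alone, and it brings any other difference among those libraries into the melatonin estimate. With it, 3 cytosolic genes passed as lower, CARS (-0.54), GARS (-0.51) and YARS (-0.42), where 2.96% of all genes tested were called lower, and no mitochondrial gene passed. The standard errors were wider, with a median of 0.11 for the cytosolic genes. The median log2 fold change was -0.18 over the cytosolic and 0.085 over the mitochondrial genes. LARS kept a log2 fold change of -0.35 without passing (adjusted p = 0.0709 by edgeR's quasi-likelihood test). Of the 14 genes called without the term, VARS and KARS moved most, from -0.33 to -0.084 and from -0.31 to -0.093. In siCLOCK replicates 1, 2 and 3 KARS stood at 419, 335 and 323 CPM, and VARS at 257, 218 and 200 CPM. Replicate 1 was thus the highest of them for both genes, and its part in the move was not tested. FARSA, which had not passed, went from -0.22 to 0.027, and among mitochondrial genes YARS2 went from -0.046 to 0.32, VARS2 from -0.16 to 0.12 and SARS2 from 0.22 to -1.14. Over the 8 cytosolic genes outside the ATF4 list the median went from -0.17 to -0.027. Over the 12 ATF4-linked genes it went from -0.35 to -0.30. As the list was drawn up with earlier results known, this split is not independent evidence.

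**Figure D4:**
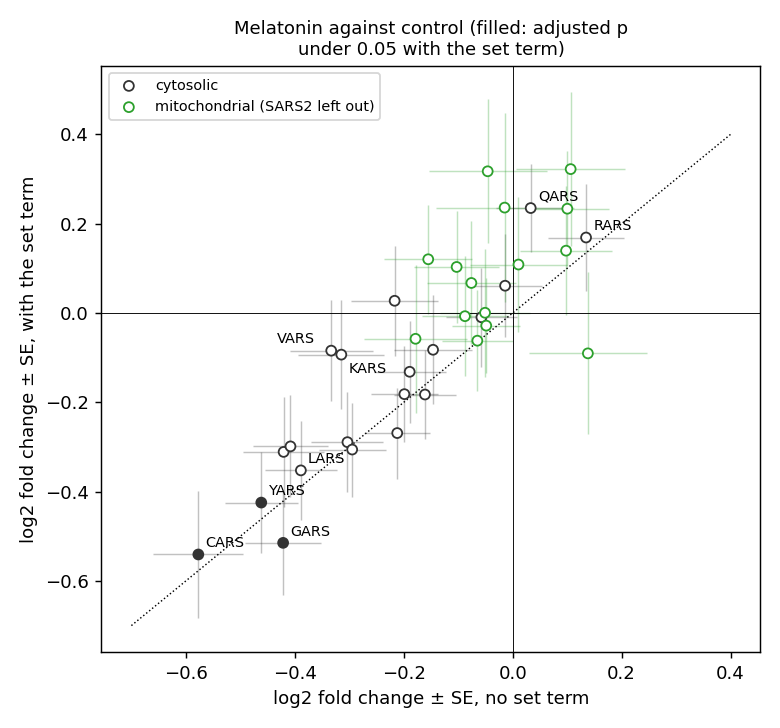
Log2 fold change ± SE in melatonin against control without (horizontal axis) and with (vertical axis) a term for the set of libraries, for 20 cytosolic (dark) and 15 mitochondrial (green) genes; filled points passed with the term and the dotted line marks equal values. CARS, GARS and YARS lie near the line, while KARS and VARS lie far above it.

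A direct look within the second set compared the 3 melatonin libraries with the library labelled siCLOCK replicate 3, with no test since that side has a single library. All 3 melatonin libraries were lower for 17 of 20 cytosolic genes and higher for QARS and RARS, where 34.3% of all genes tested were lower in all 3 and 34.4% higher. The median log2 ratio of the cytosolic genes was -0.11. Of the mitochondrial genes 1 was lower in all 3, RARS2, and 6 were higher, with a median log2 ratio of 0.035.

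In siCLOCK against control none of the 36 genes passed by edgeR's quasi-likelihood test, where 0.0669% of all genes tested were called lower and 0.0547% higher. At an unadjusted p under 0.05, 8 cytosolic genes were lower and none was higher, and no mitochondrial gene was either, where 3.75% of all genes tested were lower and 4.49% higher at that p. DESeq2 called 1 gene, GARS, as lower, where it called 0.128% of all genes so. The median log2 fold change was -0.081 over the cytosolic and -0.012 over the mitochondrial genes. GARS (ENSG00000106105.13, chromosome 7, 30594681 to 30634033) had the smallest p. It stood at 324, 302 and 264 CPM in the controls, at 240, 230 and 251 CPM in siCLOCK and at 220, 224 and 222 CPM in melatonin. The siCLOCK libraries lay below every control and above every melatonin library (log2 fold change -0.31, SE 0.070, adjusted p = 0.113 by edgeR's quasi-likelihood test). Without the library labelled siCLOCK replicate 3 the adjusted p of GARS was 0.0313, without control replicate 3 it was 0.0194, and without control replicate 1 it was 0.553.

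The 12 ATF4-linked genes all had log2 fold changes below 0 in siCLOCK (median -0.14), where 8055 of 16441 genes tested did. The 8 genes at an unadjusted p under 0.05 were all of this list. The other 8 cytosolic genes had a median of 0.014. This comparison shares its control libraries with that of melatonin, and the list was drawn up with earlier results known, so the split is not independent evidence. By library, the median log2 ratio of the list to the control mean was 0.029, 0.021 and -0.094 in the controls. It was -0.091, -0.22 and -0.14 in siCLOCK, so control replicate 3 was level with siCLOCK replicate 1. Among cytosolic genes CARS followed GARS in size at -0.30, then MARS and AARS at -0.23 each. In 7 of 20 cytosolic genes, CARS, EPRS, GARS, IARS, MARS, SARS and TARS, the siCLOCK libraries all lay below the controls, where 5.06% of all genes tested did so. Of those with log2 fold changes above 0, HARS had the smallest p among cytosolic genes, at 98.5, 98.6 and 105 CPM in the controls and at 118, 102 and 104 CPM in siCLOCK. Those ranges overlapped (log2 fold change 0.10).

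Among mitochondrial genes in siCLOCK, HARS2 had the smallest p above 0, at 37.3, 35.2 and 33.1 CPM against 33.5, 31.6 and 30.1 CPM in the controls (log2 fold change 0.15, adjusted p = 0.654 by edgeR's quasi-likelihood test). HARS and HARS2 lie head to head and share 437 exonic bases on opposite strands, so reads from that stretch could be assigned to neither. SARS2 had the smallest p below 0, with 7, 5 and 16 counts in siCLOCK against 14, 13 and 11 in the controls. Its log2 fold change of -0.45 had an SE of 0.38, and no difference was detected. RARS2 was the only mitochondrial gene without overlap, with siCLOCK above control, where 5.75% of all genes tested lay so.

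Melatonin against siCLOCK set the treatments side by side. By edgeR's quasi-likelihood test 5 cytosolic genes were lower in melatonin, none was higher and no mitochondrial gene passed, where 10.1% of all genes tested were called lower and 7.43% higher. The median log2 fold change was -0.16 over the cytosolic and -0.043 over the mitochondrial genes. The 2 comparisons of melatonin share the melatonin libraries, so they do not stand independently. In 16 of 20 cytosolic genes and in no mitochondrial gene the melatonin libraries all lay below the siCLOCK libraries, where 17.4% of all genes tested did so and 16.8% lay above.

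LARS (ENSG00000133706.17, chromosome 5, 146113038 to 146182660) stood at 287, 274 and 285 CPM in the controls, at 303, 260 and 274 CPM in siCLOCK and at 224, 215 and 208 CPM in melatonin. The siCLOCK and control libraries overlapped and the melatonin libraries lay apart below both (log2 fold change against siCLOCK -0.37, SE 0.066, adjusted p = 0.000755 by edgeR's quasi-likelihood test). It was the only member of the 36 that passed in this comparison with the set term (-0.35), where 3.85% of all genes tested were called lower. KARS (ENSG00000065427.14, chromosome 16, 75627474 to 75648643) stood at 340, 356 and 349 CPM in the controls, at 419, 335 and 323 CPM in siCLOCK and at 276, 275 and 289 CPM in melatonin. Its log2 fold change against siCLOCK was -0.36, and its siCLOCK replicate 1 was the highest of the 9 libraries. Without that library the log2 fold change was -0.23, which still passed.

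YARS (ENSG00000134684.10, chromosome 1, 32775237 to 32818153) stood at 286, 292 and 252 CPM in the controls, at 258, 233 and 239 CPM in siCLOCK and at 197, 201 and 205 CPM in melatonin. The siCLOCK libraries lay in and below the range of the controls and above every melatonin library (log2 fold change against siCLOCK -0.28). VARS (ENSG00000204394.12, chromosome 6, 31777518 to 31795953) stood at 235, 241 and 239 CPM in the controls, at 257, 218 and 200 CPM in siCLOCK and at 180, 194 and 193 CPM in melatonin. The library labelled siCLOCK replicate 3 lay only a little above the melatonin libraries (log2 fold change against siCLOCK -0.25). Without siCLOCK replicate 1 that value was -0.14 and did not pass. VARS and CARS (-0.27) passed narrowly (adjusted p = 0.0298 and 0.0293 by edgeR's quasi-likelihood test), and both lost the call when any single melatonin library was left out.

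Of the members that were higher or near level in melatonin against siCLOCK, QARS had the smallest p above 0 among cytosolic genes, at 245, 247 and 213 CPM in siCLOCK (log2 fold change 0.069). RARS2 had the smallest p below 0 among mitochondrial genes, at 90.3, 90.1 and 90.6 CPM in the controls, 99.2, 91.3 and 95.0 CPM in siCLOCK and 92.1, 84.4 and 82.7 CPM in melatonin (log2 fold change -0.14). SARS2 had the smallest p above 0, with 13, 13 and 17 counts in melatonin. Its log2 fold change of 0.67 had an SE of 0.37, and it passed when the library labelled siCLOCK replicate 3 was left out (1.28, adjusted p = 0.0268 by edgeR's quasi-likelihood test), on 7 and 5 siCLOCK counts.

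Genes that work beside the synthetases were read from lists made with earlier results known. Of 12 charging partners and modifiers, 1 fell and 1 rose in melatonin, which is near the shares over all genes tested (12.1% lower and 11.0% higher). XPOT, the exporter of tRNA from the nucleus, stood at 284, 273 and 285 CPM in the controls, at 276, 231 and 268 CPM in siCLOCK and at 219, 209 and 211 CPM in melatonin (log2 fold change -0.40). Its melatonin libraries lay below all others. GATC, a subunit of the mitochondrial amidotransferase that makes glutaminyl-tRNA, rose by 0.28. The complex's scaffold genes AIMP1 (-0.072), AIMP2 (-0.31, adjusted p = 0.0669 by edgeR's quasi-likelihood test) and EEF1E1 (-0.013) did not pass. With the set term XPOT (-0.48) still passed and GATC did not.

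Of 5 tested cytosolic elongation factor genes 1 fell in melatonin, EEF1A2 (-0.24), where 12.1% of all genes tested were called lower, and EEF1G was listed at 0 in every library. None of 9 mitochondrial translation factor genes passed by edgeR's quasi-likelihood test; at an unadjusted p under 0.05, 2 were lower and 1 higher, where 17.9% of all genes tested were lower and 17.3% higher at that p. Of 17 genes of the ATF4 pathway 11 fell in melatonin, where 12.1% of all genes tested were called lower, and 6 fell in siCLOCK, where 0.0669% were. Both counts are from the fit without the set term. ATF4 itself stood at 327, 315 and 265 CPM in the controls, at 246, 258 and 237 CPM in siCLOCK and at 193, 212 and 215 CPM in melatonin. The 3 groups did not overlap, and ATF4 passed in melatonin (log2 fold change -0.55) but not in siCLOCK (-0.29, adjusted p = 0.189 by edgeR's quasi-likelihood test). Melatonin against siCLOCK itself gave -0.25 for ATF4 (adjusted p = 0.0257 by edgeR's quasi-likelihood test). With the set term it was -0.20, where the siCLOCK side rests on the library labelled siCLOCK replicate 3 alone. None of the 4 kinase genes that act above ATF4 (EIF2AK1 to EIF2AK4) passed in melatonin, with log2 fold changes from 0.029 to 0.17. Whether the level of ATF4 bears on the synthetase genes was not tested.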

How the data were processed

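Deposited values are raw read counts for each gene. The authors produced them with STAR 2.7.9a on GRCh38, per the submitters' processing notes, from paired reads of 150 bases, per the labels' protocols. The column of counts regardless of strand was used. All identifiers matched GENCODE release 29, a release inferred from them, which gave symbols, coordinates and exon lengths. Reads that fit overlapping genes (9.77% to 10.6% of reads) were not counted for any gene, and summary lines were left out of the library sizes.

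Counts were fitted in edgeR 4.0.16 (R 4.3.3), with filterByExpr, TMM scaling and a single quasi-likelihood fit with 3 group terms over all 9 libraries. Two-sided tests were adjusted by Benjamini-Hochberg over 16441 genes, with a threshold of 0.05. The biological coefficient of variation was 0.0682. CPM are TMM-scaled, and TPM were computed from counts and exon lengths. The procedure was tested on simulated counts. Replicates differed beyond sampling noise (chi-square per gene 1.67 to 12.8). Same-numbered libraries were not paired by label, and their deviations correlated between -0.13 and 0.10.

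The members and lists were chosen with earlier results of these data known. Values in every library are given for members past the threshold in melatonin against control with a log2 fold change of at least 0.5 in size, for those past it in the other comparisons with at least 0.25, and for the member with the smallest p in each direction and class. Of companion lists, up to 4 genes with the smallest p were named; AIMP1, EEF1E1, EEF1G and the EIF2AK genes were added for their roles after their values were seen. Some genes are not reported here, so counts cover the listed genes only. Sequences are from RefSeq. Alternatives were DESeq2 1.42.0, limma-voom (limma 3.58.1), a fit of only the 6 libraries compared, RLE scaling, a filter of 5 CPM in 3 libraries, no filter, protein-coding genes only, strand-specific counts, a replicate block, a term for the set of libraries divided at 1.8% unmapped reads, and each library left out.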

Additional observations from a re-analysis of the deposited data

How the results depend on the processing

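In melatonin against control, 14 members were lower with DESeq2, limma-voom, RLE scaling or no filter, 15 with 5 CPM or protein-coding genes only, 17 with only the 6 libraries compared, 11 with strand-specific counts and 3 with the set term, and 10 to 15 when each library was left out. The calls over all genes tested moved too. The main fit called 1987 of 16441 genes lower, and the fit of only the 6 libraries compared 2809 of 16087. With 5 CPM 1875 of 11363 genes were called lower, and with protein-coding genes only 1930 of 13061. With strand-specific counts 1772 of 16793 were, and with the set term 487 of 16441. DESeq2 called 1827, limma-voom 1949 and RLE scaling 2054 of 16441 lower, and no filter 2263 of 33888. When each library was left out, 1372 of 16727 to 2439 of 16706 genes were called lower. The members that lost the call outside the set term were DARS, EPRS, IARS and SARS. The set term gave class medians of -0.18 (cytosolic) and 0.085 (mitochondrial). In siCLOCK against control 1 member, GARS, was lower with DESeq2 (21 of 16441 genes), with no filter (59 of 33888) and with the set term (43 of 16441). It was 0 to 1 member when each library was left out, where 1 of 16727 to 43 of 16706 genes were called lower. The cytosolic median then ranged from -0.14 (without siCLOCK replicate 1) to -0.061. In melatonin against siCLOCK 8 members were lower with no filter, where 1900 of 33888 genes were. It was 3 members with strand-specific counts (1317 of 16793 genes). With the set term the siCLOCK side rests on a single library, so no count is given. Leaving out each library gave 3 to 8 members lower. It was 3 without each melatonin library (1031 of 16685 to 1061 of 16743 genes). It was 8 without the library labelled siCLOCK replicate 3 (2159 of 16706 genes). Members called higher were 0 to 1, where 619 of 16685 to 1699 of 16706 genes were. The cytosolic medians were then -0.18 to -0.12 and the mitochondrial medians -0.073 to 0.018. The cytosolic median was -0.12 with strand-specific counts and -0.11 with the set term, and the mitochondrial median 0.036 with the set term. No value called in the main fit changed sign under these alternatives. VARS2, which passed in melatonin against control in the fit of only the 6 libraries compared, changed sign with the set term.

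With the replicate number as a block, 12 members were lower in melatonin against control (DARS and EPRS lost the call), where 1875 of 16441 genes were. There were 5 in melatonin against siCLOCK (1550 genes) and 0 in siCLOCK against control (8 genes). The replicate numbers are not known to pair the samples. Depth limits SARS2 most among the members, at 5 to 17 counts.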
